A study of Mus musculus with 6 samples.

Results

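Ubiquitin-specific proteases (USPs) are the largest family of deubiquitinases, the enzymes that cut ubiquitin off proteins. The family was taken as the protein-coding mouse genes named Usp followed by a number, with an x where the gene has one (Usp9x, Usp27x), leaving out Usp18 and genes on the Y chromosome. This gave 48 genes of the 55487 gene identifiers in the files. They were compared between naive CD4+ T cells of the spleen (3 libraries) and of the mesenteric lymph node (mLN, 3 libraries), all from wild-type (WT) animals of the strain C57BL6/J with no treatment. Naive CD4+ T cells are helper T cells that have not yet met antigen. Neither age nor sex, nor the way the cells were sorted, is stated in the labels, and nothing says whether the libraries of a group came from separate animals, so the tests weigh differences against a spread among libraries that could be only technical. The labels call the cells freshly prepared.

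Ubiquitin is a small protein that ligases attach to other proteins, singly or as chains, and that marks them for the proteasome or changes their location and partners. USPs reverse this with a cysteine protease domain, and they thereby set how long a receptor, kinase, histone mark or transcription factor keeps its ubiquitin. In T cells, members of the family are known to act on antigen receptor signalling, NF-kB and TGF-beta signalling, chromatin and the p53 pathway.

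Read depth ranged from 13205499 to 20054205 expected counts per library. Levels are given below as CPM (expected counts scaled to a common library total with TMM factors) for comparing 1 gene between libraries, and as TPM, which also divides by transcript length, for comparing genes with each other. A count of 3 in a library corresponds to between 0.149 and 0.225 CPM, for counting error only. Markers of naive CD4+ T cells summed to between 6155 and 6421 CPM in the spleen libraries and between 5671 and 5771 CPM in those of the mLN, and 4 of these 10 genes were higher and 5 lower in mLN. Low levels of other cells' markers differed between the groups. The 10 macrophage genes summed to between 35.2 and 39.1 CPM in spleen and between 3.15 and 4.21 CPM in mLN (5 of 6 tested were lower), the 9 neutrophil genes to between 31.5 and 37.7 and between 0.150 and 1.24 CPM (5 of 5 lower; Ly6g and Elane at 0 everywhere), and the 8 B cell genes to between 31.4 and 35.5 and between 10.4 and 18.2 CPM (5 of 8 lower). No tested gene of the CD8 T cell, NK cell and regulatory T cell lists was called, and the 7 erythroid genes summed to at most 0.676 CPM in any library (Hbb-bt among those at 0). In bulk RNA, fewer cells of a type and less RNA per cell cannot be told apart, and the part of these other cells in the Usp values was not tested.

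Most of the family was expressed in naive CD4+ T cells. Of the 48 genes, 41 passed the filter on low counts and were tested. The other 7 were Usp13, Usp26, Usp43, Usp44 and Usp51, which had a count of 0 in every library, Usp29, with 9 counts in mLN replicate 1 and 0 elsewhere, and Usp50, with 0 to 4 counts per spleen library and 2 to 12 per mLN library. Usp26 and Usp29 are germ line genes, and Usp44 acts in mitosis and on histone H2B. Usp13 is the close relative of Usp5, which was well expressed.

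By level per length, Usp7 stood first, with 108 ± 2.45 TPM (spleen) and 181 ± 4.01 TPM (mLN) (SD, n = 3 per organ). Usp19 followed with 86.1 ± 17.0 and 133 ± 9.04 TPM, then Usp4 with 84.9 ± 9.01 and 100.4 ± 5.27 TPM, Usp48 with 73.7 ± 5.56 and 105 ± 6.69 TPM, and Usp15 with 81.7 ± 2.89 and 90.2 ± 10.99 TPM (SD, n = 3 per organ). The spleen ranges of Usp4, Usp15, Usp19 and Usp48 overlapped, so their order is not resolved there. In mLN, Usp19 lay above the others, whose ranges overlapped, so the order of Usp4, Usp15 and Usp48 is not resolved there either. At the low end, Usp49 had 1.46 and 1.78 TPM in the organs in the same order, Usp54 had 2.24 and 2.07 TPM, and Usp27x was at 0.137 ± 0.122 TPM (spleen) and 0.337 ± 0.0751 TPM (mLN) (SD, n = 3 per organ).

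**Figure D1:**
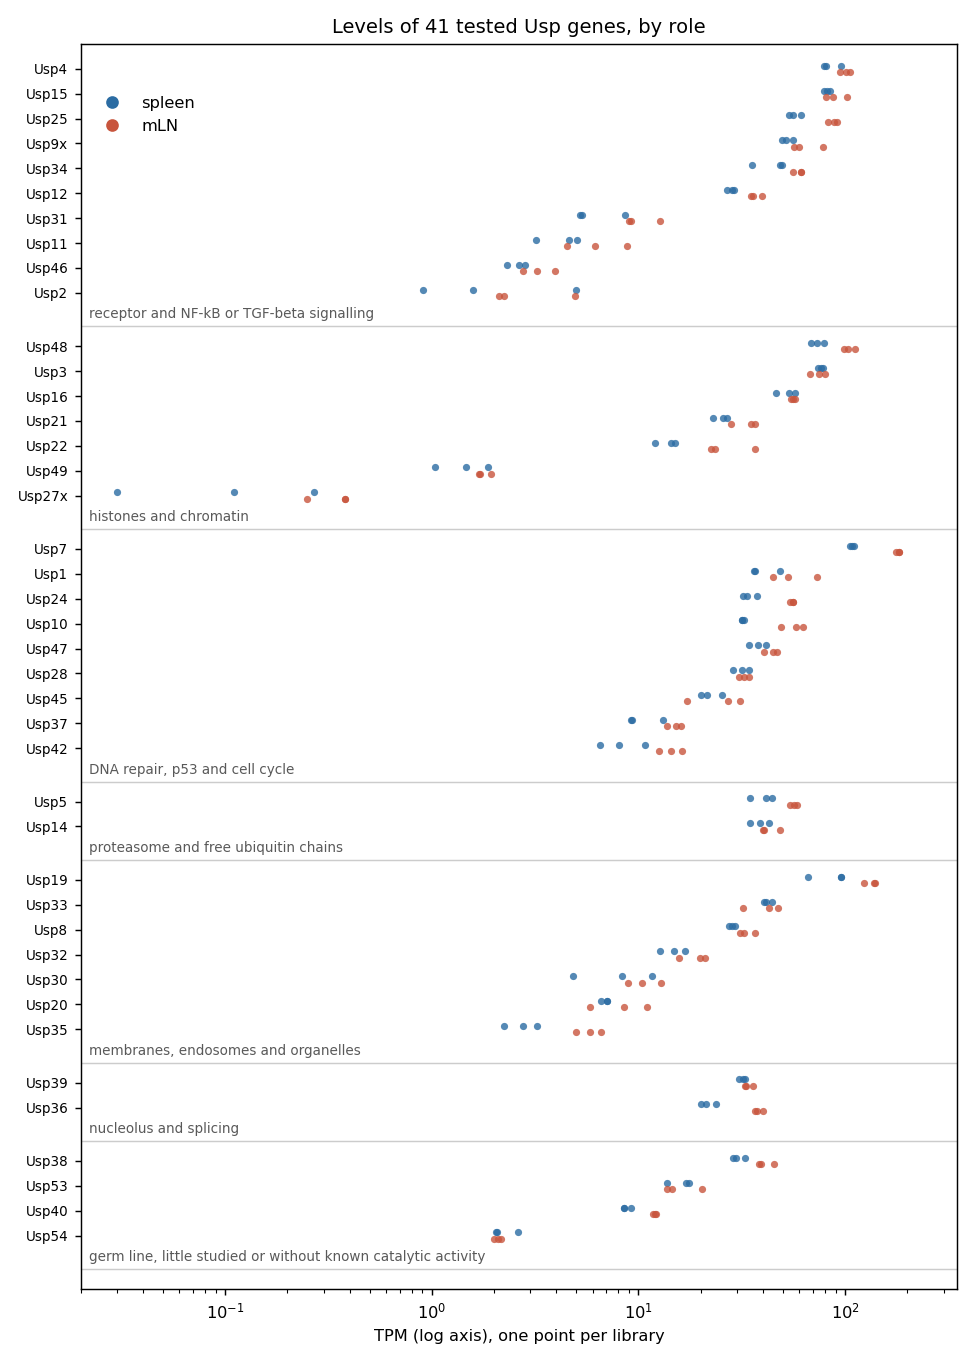
TPM on a log axis of the 41 tested Usp genes, 1 point per library, spleen in blue and mLN in red, grouped by role. Usp7 is the highest of all, with every mLN library above every spleen library, and Usp27x is the lowest.

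Added over the family, counts of these genes took a larger part of the mLN libraries. Counts and CPM are not divided by transcript length, which fold changes in these libraries followed (below). With the length trend removed, the members' median log2 fold change was -0.01, and that of all genes tested was -0.03. The 48 genes held between 0.364 and 0.377% of the counts in the spleen libraries and between 0.421 and 0.454% in the mLN libraries. Their summed level was 3762 ± 78.0 CPM in the spleen libraries and 4347 ± 156 CPM in those of the mLN (SD, n = 3 per organ), and the groups did not overlap.

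Between the organs, 12 Usp genes were higher in mLN, 1 was lower and 28 were not called (edgeR's quasi-likelihood test, Benjamini-Hochberg adjusted p under 0.05 over all 12486 genes tested). That is 29.3% of the tested members higher and 2.44% lower, where 16.1% of all genes tested were higher and 13.5% lower. The median log2 fold change, mLN minus spleen, was 0.17 over the members and -0.01 over all genes tested. None of the called changes was large: the largest was 1.63-fold, in Usp10. In CPM, all 3 mLN libraries lay above all 3 spleen libraries for 16 members and below them for 4, against 21.5% and 20.3% of all genes tested. The 12 higher members, in order of their log2 fold change, were Usp10, Usp42, Usp31, Usp36, Usp24, Usp7, Usp22, Usp19, Usp25, Usp48, Usp5 and Usp34, and the lower one was Usp3.

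**Figure D2:**
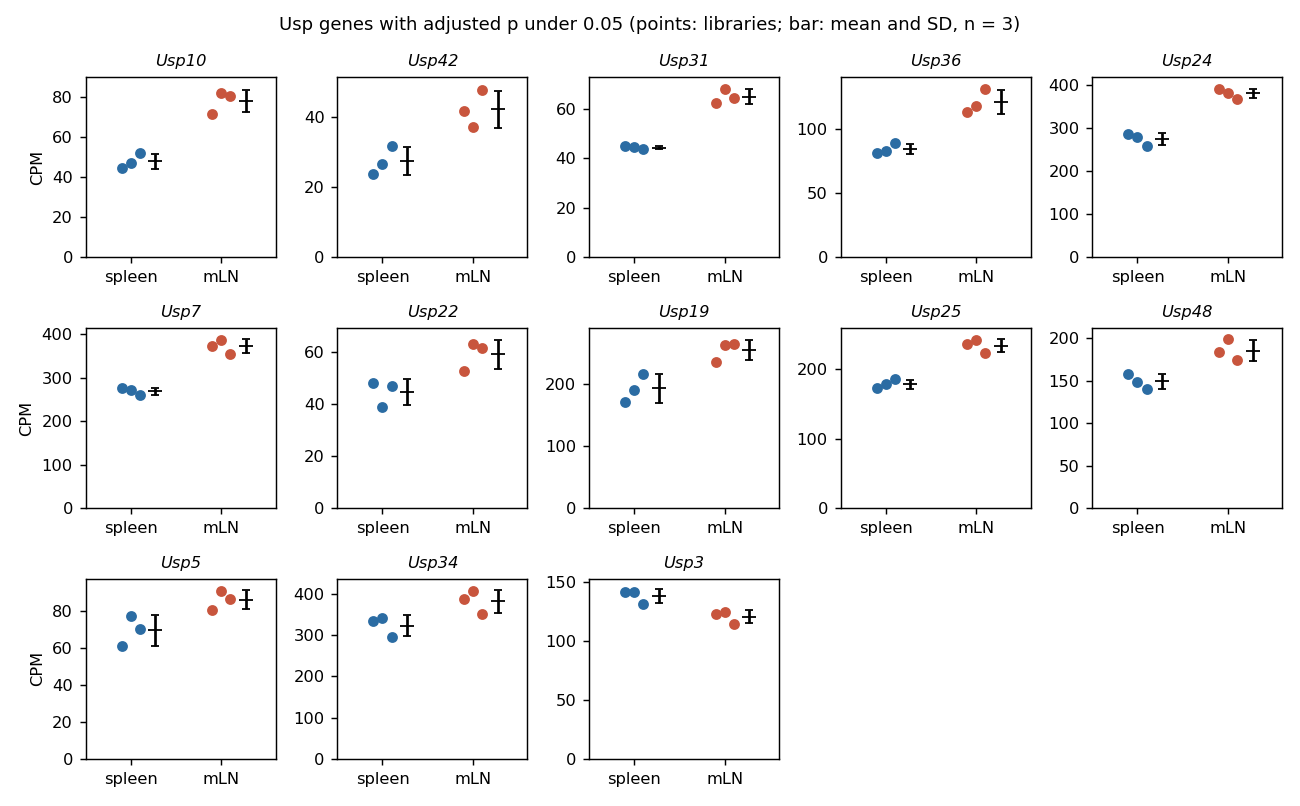
CPM of the 13 called Usp genes in each library, with the axis starting at 0. Points are libraries, and the bar beside them is the mean with its SD (n = 3). In each of the 13 panels the 3 spleen and 3 mLN values do not overlap.

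USP transcripts are long, with a median of 3493 nt over the tested members against 2330 nt over all genes tested, and fold changes in these libraries followed transcript length. Over all 12486 genes (genes do not count as replicates), length and log2 fold change had a Spearman's rho of 0.37. The share of genes called higher went from 4.49% at up to 2000 nt to 15.3% at 2000 to 3000 nt, 25.3% at 3000 to 4500 nt, 36.4% at 4500 to 6000 nt and 45.6% above 6000 nt. In the same classes the Usp genes called higher were 0 of 2, 4 of 12, 4 of 16, 1 of 3 and 3 of 8. Among the 41 members themselves rho was 0.14, and -0.22 with the length trend removed. Both are descriptions over genes measured in the same libraries.

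With the length trend of each library taken into the fit, 9 members were higher and 4 lower, against 11.4% and 12.1% of all genes tested. The median log2 fold change was then -0.01 over the members and -0.03 over all genes tested. Those still higher were Usp7, Usp10, Usp19, Usp22, Usp25, Usp36, Usp42, Usp48 and Usp5. Usp24, Usp31 and Usp34, the members with the longest transcripts (9935, 9196 and 9236 nt), were no longer called. Usp28, Usp47 and Usp53 joined Usp3 among the lower genes. On the deposited TPM values, tested with limma on log2(TPM + 1), 13 members were higher and 0 lower, against 22.1% and 3.08% of all genes tested. On that scale the median over all genes tested was itself 0.21, and over the members 0.38. With each library centred on its median, 5 members were higher and 0 lower, against 6.39% and 7.58%. Those 5 were Usp7, Usp10, Usp24, Usp25 and Usp36. At an unadjusted p under 0.05, limma gave 20 higher and 0 lower members on log2 TPM, against 31.9% and 5.41% of all genes tested, and 10 higher and 1 lower on centred values, against 14.1% and 16.3%.

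**Figure D3:**
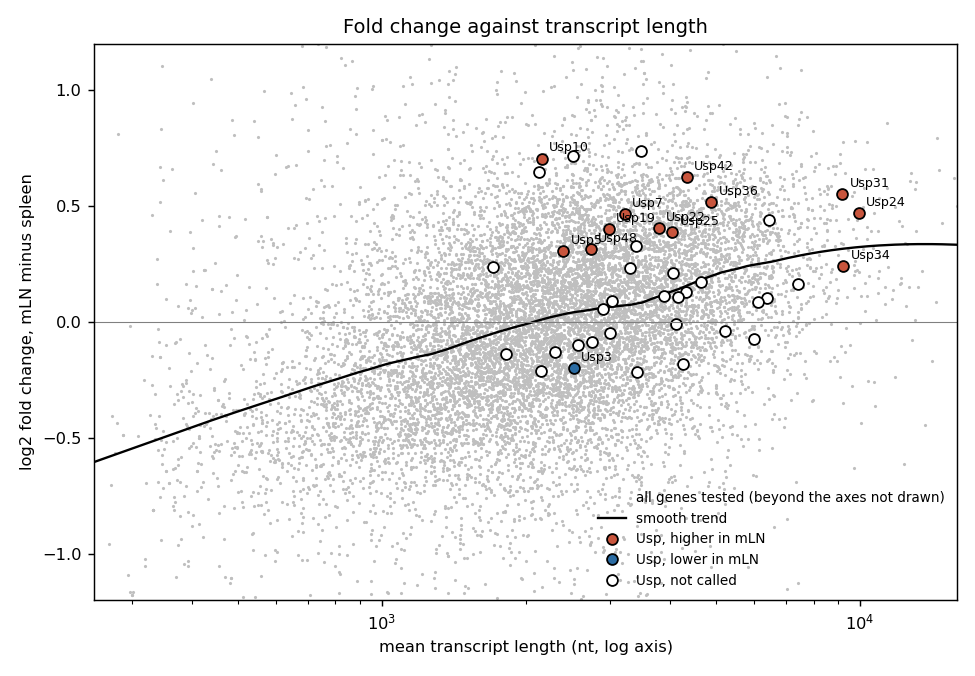
Log2 fold change, mLN minus spleen, against mean transcript length in nt on a log axis, for all genes tested (grey), with the smooth trend as a line and the 41 Usp genes as circles, red if higher, blue if lower and white if not called. Usp10 and Usp7 lie well above the trend at their length, and Usp34 lies below it.

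**Figure D4:**
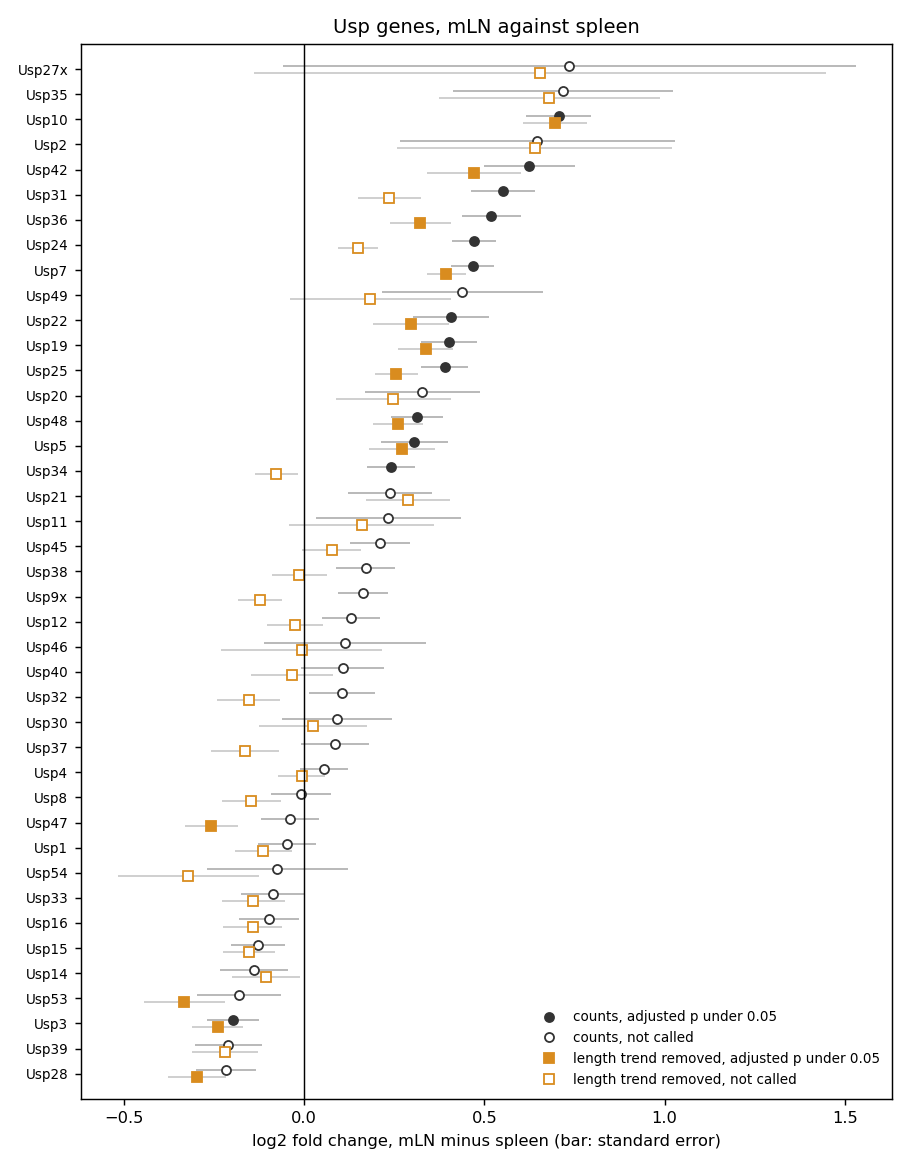
Log2 fold change with its standard error for each of the 41 tested Usp genes, from counts (circles) and with the length trend removed (squares). Filled marks had an adjusted p under 0.05. Usp10 hardly moves between the fits, while Usp24, Usp31 and Usp34 lose their filled mark.

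Sequences before the start sites of 3 members are shown because they are the most abundant member (Usp7), a member higher in both count fits (Usp36) and the one called lower (Usp3), a choice made after their values were seen. They are the 250 bases before the RefSeq start in GRCm38.p6, 5′ to 3′ on the gene's strand: chr16:8738343-8738592 on the minus strand for Usp7, chr11:118290245-118290494 on the minus strand for Usp36 and chr9:66593116-66593365 on the minus strand for Usp3. Capitals mark, on either strand, the GC box of SP and KLF factors (GGGCGG), the ETS core (CCGGAAG) and the CCAAT box (CCAAT); overlapping matches run together. RefSeq starts can differ from the ends of the GENCODE gene spans given here.
Usp7: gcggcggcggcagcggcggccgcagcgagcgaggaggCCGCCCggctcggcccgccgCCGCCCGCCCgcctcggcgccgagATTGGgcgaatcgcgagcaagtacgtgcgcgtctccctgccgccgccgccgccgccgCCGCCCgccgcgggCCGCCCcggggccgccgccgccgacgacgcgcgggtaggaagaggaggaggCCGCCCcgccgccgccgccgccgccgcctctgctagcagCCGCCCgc
Usp36: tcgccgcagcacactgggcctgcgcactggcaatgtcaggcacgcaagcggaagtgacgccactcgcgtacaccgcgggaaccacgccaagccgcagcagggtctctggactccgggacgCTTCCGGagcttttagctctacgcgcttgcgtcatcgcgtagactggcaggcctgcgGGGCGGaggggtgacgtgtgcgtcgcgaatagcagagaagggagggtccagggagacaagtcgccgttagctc
Usp3: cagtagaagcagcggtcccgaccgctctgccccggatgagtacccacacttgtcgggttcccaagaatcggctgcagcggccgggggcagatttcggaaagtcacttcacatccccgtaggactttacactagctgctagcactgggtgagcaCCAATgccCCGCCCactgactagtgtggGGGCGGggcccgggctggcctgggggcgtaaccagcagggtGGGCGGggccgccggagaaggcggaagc
The Usp7 window is made up of 85.2% G and C and holds 55 CpG dinucleotides, 7 GC boxes and 1 CCAAT box, the last read as ATTGG. The Usp36 window has 65.6% G and C, 28 CpG dinucleotides, 1 GC box and 1 ETS core, and the Usp3 window has 66.0%, 18 CpG dinucleotides, 3 GC boxes and 1 CCAAT box. RefSeq windows matched 37 of the 48 members and 32 of the 41 tested. Of those 32, 23 hold a GC box, against 32.9% of 27025 promoter windows of the same length, 7 hold an ETS core (7.05% of all windows) and 5 a CCAAT box (34.5% of all windows). Of the other motifs searched, 3 of the 32 hold an E-box (CACGTG, 6.05% of all windows), and none holds the cyclic AMP response element TGACGTCA (1.62%) or the palindromic NRF1 site (0.781%). Of the 9 matched members that were higher in mLN, 6 hold a GC box. The median share of G and C was 65.6% in the tested members and 52.0% in all windows. The 27025 windows include genes that were not tested here, and the shares among windows of tested genes were not computed. A match is a description of letters, not of a bound site.

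Among the members of DNA repair, the p53 pathway and the cell cycle, 4 of 9 rose and 0 fell (3 and 2 with the length trend removed). The counts by role are to be read against 16.1% of all genes tested higher and 13.5% lower on counts, and 11.4% and 12.1% with the length trend removed. Usp10, which deubiquitinates p53 in the cytoplasm and binds the stress granule proteins G3BP1 and G3BP2, was at 44.7, 47.0 and 52.0 CPM in the spleen libraries and 71.6, 82.0 and 80.9 CPM in the mLN libraries. Its lowest mLN library lay well above its highest spleen library, for a log2 fold change of 0.71, standard error 0.0914 (adjusted p = 5.60e-06, edgeR). With the length trend removed it was 0.70 (adjusted p = 1.32e-05, edgeR). Its transcripts averaged 2159 nt. The gene (ENSMUSG00000031826) lies at chr8:119910360-119957560 on the plus strand of GRCm38.

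Usp7, which stabilizes both p53 and its ligase MDM2 and is known to keep the regulatory T cell factor FOXP3 from degradation, was at 275, 272 and 259.7 CPM in the spleen libraries and 374, 387 and 355 CPM in those of the mLN. The groups stood apart, with replicates within each close together. It was 1.38-fold higher (log2 standard error 0.0590, adjusted p = 4.19e-06, edgeR), and its log2 fold change was 0.39 with the length trend removed (adjusted p = 2.86e-05). Usp7 (ENSMUSG00000022710) lies at chr16:8689595-8792308 on the minus strand.

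Usp42, another p53 deubiquitinase, was at 23.8, 26.8 and 31.8 CPM in spleen and 41.9, 37.2 and 47.9 CPM in mLN, a 1.54-fold rise (adjusted p = 7.28e-04, edgeR). Its replicates spread widely in both organs, without overlap. Usp24, a very large deubiquitinase with roles in DNA repair, was at 286, 279 and 258 CPM in the spleen libraries and 391, 383 and 368 CPM in those of the mLN. The rise of 1.39-fold (adjusted p = 4.59e-06, edgeR) was a log2 fold change of 0.47 on counts and 0.15 with the length trend removed (adjusted p = 0.0581).

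The other 5 genes of this group were not called on counts. Usp28, which stabilizes MYC and acts in the DNA damage checkpoint, was at 87.2, 82.6 and 79.4 CPM in spleen and 70.5, 75.2 and 68.6 CPM in mLN. These values did not overlap, with a log2 fold change of -0.22 and an adjusted p of 0.0543 (edgeR). With the length trend removed it passed (adjusted p = 0.0103), as it did by DESeq2 (0.0427) and limma-voom (0.0488), with upper-quartile factors (0.0197) and with the stricter filter (0.0317), and without spleen replicate 3 (0.0393) or mLN replicate 2 (0.0466). Usp47, which acts on DNA polymerase beta, had a log2 fold change of -0.04 on counts and -0.26 with the length trend removed (adjusted p = 0.771 and 0.0143, edgeR). Usp1, the deubiquitinase of FANCD2 and PCNA, was at 99.1 ± 2.01 and 95.9 ± 7.58 CPM and Usp37 at 54.0 ± 5.50 and 57.4 ± 2.28 CPM in spleen and mLN (SD, n = 3 per organ). Usp45 was at 59.3, 62.9 and 61.9 CPM in spleen and 68.8, 74.2 and 70.3 CPM in mLN, without overlap, and was not called (log2 fold change 0.21, adjusted p = 0.0629, edgeR). With the trend on GC content removed it was called, at 0.37 (adjusted p = 3.78e-04). With the length trend removed it was not, at 0.08 (adjusted p = 0.554, edgeR).

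Genes for USPs of receptor, NF-kB and TGF-beta signalling gave 3 called members of 10, all higher on counts, and 1 higher with the length trend removed, against 16.1% and 11.4% of all genes tested. Usp25, which regulates TRAF proteins in cytokine and innate signalling, was at 172, 178 and 185 CPM in the spleen libraries and 236, 242 and 224 CPM in those of the mLN. Every mLN library exceeded every spleen library, and the gene was 1.31-fold higher (log2 standard error 0.0645, adjusted p = 9.14e-05, edgeR). Its log2 fold change was 0.39, and 0.26 with the length trend removed (adjusted p = 0.00398). Usp31, which has been tied to NF-kB, was at 44.9, 44.5 and 43.6 CPM in spleen and 62.4, 68.2 and 64.5 CPM in mLN. That is a 1.47-fold rise with closely grouped spleen libraries (adjusted p = 7.29e-05, edgeR), which was not called with the length trend removed (adjusted p = 0.0561) or on log2 TPM (adjusted p = 0.0805, limma). Usp34, a regulator of Wnt signalling, had 334, 340.3 and 295 CPM in the spleen libraries and 388, 406 and 352 CPM in those of the mLN, 1.18-fold (adjusted p = 0.00937, edgeR). Its log2 fold change of 0.24 turned to -0.08 with the length trend removed (adjusted p = 0.385, edgeR). The call on counts was lost without mLN replicate 2 (adjusted p = 0.0791, edgeR). Usp34 was also not called on log2 TPM (adjusted p = 0.0511, limma) or on centred log2 TPM (adjusted p = 0.415, limma). Of the exonic bases of Usp34, 11.6% overlap Ahsa2 on the opposite strand; the library kit keeps strand, but no source used here says how the counting used it.

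The closely related Usp4, Usp15 and Usp11, which act on TGF-beta receptors and SMADs, were not called. Usp4 was at 183, 186 and 177 CPM in the spleen libraries and 199, 178 and 189 CPM in those of the mLN, and the groups overlapped (log2 fold change 0.05, standard error 0.0666, adjusted p = 0.595, edgeR). Usp15, also known to limit T cell activation through MDM2, was at 139, 139 and 141 CPM in spleen and 124, 140.4 and 119 CPM in mLN, with overlapping groups (log2 fold change -0.13, standard error 0.0755, adjusted p = 0.226, edgeR). Usp11 was weakly expressed, at 11.1 ± 2.04 and 12.99 ± 2.63 CPM (SD, n = 3 per organ). Usp9x, which is needed for full T cell receptor signalling, was among the members with the most counts, at 317, 308 and 272 CPM in spleen and 349.6, 349 and 307 CPM in mLN. Its groups overlapped and its log2 fold change was 0.16 with a standard error of 0.0687 (adjusted p = 0.0780, edgeR). It was called without mLN replicate 3 (adjusted p = 0.0156). Removing the trend on GC content also gave a call, at 0.34 (adjusted p = 1.95e-07). In the length fit Usp9x turned slightly negative, at -0.12, and was not called (adjusted p = 0.161, edgeR). Nor was it called on centred log2 TPM, at 0.045 (adjusted p = 0.849, limma). Usp12, which keeps the T cell receptor complex at the surface, was at 96.7, 92.2 and 98.7 CPM in spleen and 99.4, 113 and 103 CPM in mLN, without overlap (log2 fold change 0.13, adjusted p = 0.240, edgeR). It was called with the trend on GC content removed, at 0.22 (adjusted p = 0.0168), and on log2 TPM, at 0.38 (adjusted p = 0.0275, limma). Usp12 was not called on centred log2 TPM, at 0.13 (adjusted p = 0.411, limma), or with the length trend removed, at -0.03 (adjusted p = 0.862, edgeR). Its relative Usp46 was at 6.86, 9.49 and 6.67 CPM in spleen and 8.29, 9.23 and 7.48 CPM in mLN, and the groups overlapped. Usp2 had 2.65 ± 1.40 CPM (spleen) and 4.17 ± 0.898 CPM (mLN) (SD, n = 3 per organ; adjusted p = 0.223, edgeR). It was not called in the other alternatives and passed when spleen replicate 2 was left out, with a log2 fold change of 1.17 and an adjusted p of 0.0484.

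Of 7 tested members that act on histones and chromatin, 2 rose and 1 fell, in both fits. Usp22, the catalytic subunit of the SAGA deubiquitinase module, which takes ubiquitin off histone H2B, was at 48.2, 38.9 and 46.8 CPM in spleen and 52.8, 63.0 and 61.7 CPM in mLN. The groups lay close without overlapping. The rise was 1.33-fold (log2 standard error 0.105, adjusted p = 0.00518, edgeR; 0.0448 with the length trend removed), and it was not called without spleen replicate 2 (adjusted p = 0.0508). Usp48, which acts on histone H2A and on RELA, was at 158, 149 and 140.4 CPM in the spleen libraries and 183, 199 and 174 CPM in those of the mLN, 1.24-fold higher (adjusted p = 0.00219, edgeR).

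Usp3, which removes ubiquitin from histone H2A, was the one member called lower on counts, at 142, 141 and 132 CPM in the spleen libraries and 123, 124 and 115 CPM in those of the mLN. Its highest mLN library lay just below its lowest spleen library, for a log2 fold change of -0.20, standard error 0.0730 (adjusted p = 0.0457, edgeR; 0.0176 with the length trend removed). The gene lies at chr9:66514637-66593142. The call was marginal: it was lost without any one library other than spleen replicate 3, with adjusted p-values of 0.137 without spleen replicate 1, 0.156 without spleen replicate 2, 0.0596 without mLN replicate 1, 0.0595 without mLN replicate 2 and 0.109 without mLN replicate 3. It was also lost without a filter on low counts (0.0601), with the trend on GC content removed (0.237) and on log2 TPM (0.766; 0.0579 centred), where the difference was -0.04. Usp16, another histone H2A deubiquitinase, was at 90.4, 106 and 100.4 CPM in spleen and 97.5, 90.8 and 89.3 CPM in mLN, and Usp21 at 29.1 ± 1.83 and 34.4 ± 3.17 CPM (SD, n = 3 per organ), with neither called. Usp49 had 6.37 ± 0.588 and 8.64 ± 0.865 CPM (SD, n = 3 per organ; adjusted p = 0.149, edgeR), and 51.2% of its exonic bases also belong to the gene model Gm20517 on the same strand, so its reads are uncertain. Usp27x, a relative of Usp22, had 1, 14 and 6 counts in the spleen libraries and 13, 7 and 16 in the mLN libraries.

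Of the USPs tied to the proteasome and to free ubiquitin chains, Usp5, which takes apart unanchored chains, was at 61.0, 77.3 and 70.4 CPM in spleen and 80.8, 91.1 and 86.3 CPM in mLN. The gap between the groups was small beside the spread of the spleen libraries. It was 1.24-fold higher (adjusted p = 0.0160, edgeR), and leaving out spleen replicate 1 (adjusted p = 0.118) or mLN replicate 2 (0.0801) ended the call. Usp14, which trims ubiquitin on the proteasome's regulatory particle, was at 49.4, 53.1 and 49.4 CPM in spleen and 47.7, 46.2 and 44.1 CPM in mLN, and it was not called (log2 fold change -0.14, standard error 0.0949, adjusted p = 0.303, edgeR). Thoc1 lies on the opposite strand over 26.0% of the exonic bases of Usp14.

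Usp19 was the only one of 7 membrane, endosome and organelle members to be called. The gene encodes a deubiquitinase with a form anchored in the endoplasmic reticulum membrane, and it was at 171, 191 and 216 CPM in the spleen libraries and 236, 263 and 265 CPM in those of the mLN. The spleen libraries spread widely, without overlap with those of the mLN. The rise was 1.32-fold (log2 standard error 0.0780, adjusted p = 4.87e-04, edgeR). The adjusted p was 0.00318 with the length trend removed (edgeR) and 0.107 on centred log2 TPM (limma). Usp8, which acts on endosomal receptor sorting and is required for T cell homeostasis, was at 90.9 ± 2.28 and 90.4 ± 7.33 CPM (SD, n = 3 per organ; log2 fold change -0.01, standard error 0.0833). Usp33, a deubiquitinase of beta-adrenergic receptors, was at 85.1, 83.2 and 73.2 CPM in spleen and 76.7, 81.6 and 69.5 CPM in mLN, with overlap. Usp32 was at 75.4 ± 6.44 and 81.2 ± 7.29 CPM and Usp30, which opposes the removal of damaged mitochondria, at 18.4 ± 2.92 and 19.6 ± 1.56 CPM (SD, n = 3 per organ). Usp20, the close relative of Usp33, was at 12.5, 18.35 and 16.3 CPM in spleen and 20.3, 20.9 and 18.29 CPM in mLN, and the groups overlapped by a little. Usp35 had 2.40, 6.76 and 6.36 CPM in spleen and 7.80, 7.28 and 10.6 CPM in mLN, without overlap. Its log2 fold change of 0.72 had a standard error of 0.306 and an adjusted p of 0.0859 (edgeR; 0.0338 without a filter on low counts; 0.0161 on log2 TPM and 0.0752 centred, by limma).

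In the nucleolus and splicing group, 1 of 2 members rose. Usp36, a nucleolar deubiquitinase needed for ribosome production that also stabilizes MYC, was at 81.4, 82.9 and 89.3 CPM in the spleen libraries and 114, 118 and 132 CPM in those of the mLN. The gene lies at chr11:118259651-118290244. The groups were well separated, with a 1.43-fold rise (log2 standard error 0.0818, adjusted p = 5.34e-05, edgeR). The log2 fold change was 0.52, and 0.32 with the length trend removed (adjusted p = 0.00774). Usp39, a spliceosome component that lacks protease activity, was at 50.6, 51.4 and 51.1 CPM in spleen and 44.4, 44.7 and 43.2 CPM in mLN. Its mLN libraries were all lower, and it was not called (log2 fold change -0.21, standard error 0.0934, adjusted p = 0.0986, edgeR; 0.0418 with upper-quartile factors). In TPM the mean was the higher one in mLN, with 31.8 ± 0.912 (spleen) and 34.0 ± 1.78 (mLN) (SD, n = 3 per organ). On centred log2 TPM Usp39 was lower in mLN, at -0.15, and not called (adjusted p = 0.315, limma).

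None of the 4 tested members of the remaining group, of germ line genes, little studied genes and genes without known catalytic activity, was called by the edgeR test on counts. Usp38 was at 119.8, 109 and 106 CPM in spleen and 120.5, 138 and 118 CPM in mLN, and Usp40 at 29.5 ± 2.05 and 31.8 ± 1.46 CPM (SD, n = 3 per organ). Usp54 was at 9.33, 9.09 and 10.4 CPM in spleen and 9.15, 9.38 and 8.87 CPM in mLN. All 3 genes overlapped between the organs. Usp38, not called on counts (log2 fold change 0.17, adjusted p = 0.124, edgeR), was called with the trend on GC content removed, at 0.21 (adjusted p = 0.0182), and on log2 TPM, at 0.42 (adjusted p = 0.0244, limma). It was not called on centred log2 TPM, at 0.17 (adjusted p = 0.315, limma), or with the length trend removed, at -0.01 (adjusted p = 0.931, edgeR). Usp53, which encodes a protein of cell junctions, was at 53.7, 49.7 and 52.3 CPM in spleen and 54.0, 46.8 and 37.0 CPM in mLN, where the libraries spread widely. It had a log2 fold change of -0.18 on counts and -0.33 with the length trend removed (adjusted p = 0.271 and 0.0383, edgeR).

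The deposited transcript length of a gene is an average over its isoforms weighted by their estimated abundance, so it also shows isoform use. It differed without overlap between the organs in 2 of 41 members, both longer in mLN: Usp33, with 2569, 2638 and 2428 nt in spleen and 2821, 2751 and 3335 nt in mLN, and Usp54. Over all genes tested, the length was without overlap higher in mLN for 4.92% and lower for 3.72%. Usp22, named after its values were seen, had 4293, 4117 and 3985 nt in spleen and 3638, 4110.3 and 2655 nt in mLN, so that mLN replicate 3 stood apart. In that library Usp22 reached 36.5 TPM, against 22.45 and 23.5 TPM in the other two mLN libraries and 14.3, 12.0 and 14.99 TPM in spleen. In CPM that library, at 61.7, lay between the other two mLN libraries.

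Ratios of related members within a library, which need no scaling between libraries, were computed for 8 pairs. Usp25 exceeded its relative Usp28 in TPM by 1.81-fold in spleen and 2.70-fold in mLN, with log2 ratios of 0.76, 1.09 and 0.71 against 1.51, 1.27 and 1.52. The log2 ratio of Usp20 to Usp33 was -2.61 ± 0.0752 in spleen and -2.30 ± 0.284 in mLN, and that of Usp35 to Usp38 was -3.49 ± 0.254 and -2.83 ± 0.210 (SD, n = 3 per organ). These 3 pairs did not overlap between the organs. They gave p = 0.10 in a two-sided exact permutation test, the smallest that 3 against 3 libraries allow, and 0.267 adjusted over the 8 pairs. The log2 ratios of Usp4 to Usp15 (0.05 ± 0.194 and 0.16 ± 0.235), Usp12 to Usp46 (3.45 ± 0.176 and 3.49 ± 0.261), Usp16 to Usp45 (1.24 ± 0.174 and 1.196 ± 0.470) and Usp53 to Usp54 (2.85 ± 0.170 and 2.94 ± 0.313; SD, n = 3 per organ) differed between the organs by less than their spread, with exact permutation p-values from 0.70 to 0.90. Usp12 was 10.9-fold above Usp46 in spleen and 11.2-fold in mLN. The ratio of Usp22 to Usp27x rests on few counts of Usp27x (exact permutation p = 0.50).

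**Figure D5:**
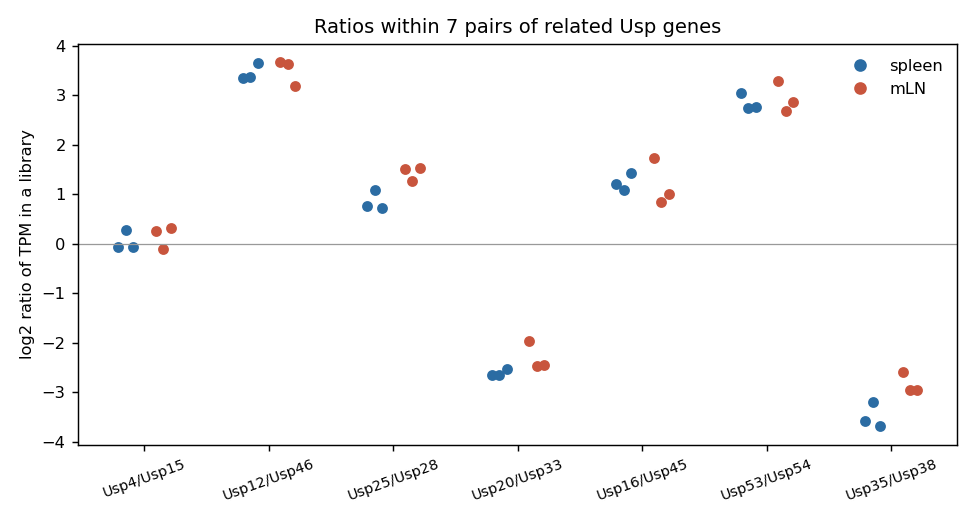
Log2 ratio of the TPM of 2 related Usp genes within each library, spleen in blue and mLN in red, for 7 pairs. The ratio of Usp25 to Usp28 is higher in each mLN library than in each spleen library, while that of Usp4 to Usp15 overlaps around 0.

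Other genes of the ubiquitin system, on lists chosen with earlier results of these data known, did not all move with the USPs. Of 37 tested genes of other deubiquitinase families, including Cyld, a USP by structure, 6 were higher and 7 lower in mLN, against 16.1% and 13.5% of all genes tested (5 and 7 with the length trend removed, against 11.4% and 12.1%), with a median log2 fold change of -0.0018. The smallest p-values belonged to Prpf8, a spliceosome protein with an inactive deubiquitinase fold, which rose from 415 ± 15.2 to 636 ± 23.4 CPM, Eif3h, a translation initiation subunit of the same fold, which fell from 398 ± 19.3 to 309.8 ± 11.4 CPM, and Tnfaip3, an inhibitor of NF-kB, which rose 1.36-fold (SD, n = 3 per organ). Taking out the length trend moved the log2 fold changes of these 3 genes from 0.62 to 0.35, from -0.36 to -0.22 and from 0.45 to 0.30, and all 3 were called (adjusted p = 5.85e-05, 0.00612 and 0.0144, edgeR). Cyld had means of 256 and 262 CPM (adjusted p = 0.770, edgeR; 0.0330 and lower in mLN with the length trend removed). Cyld and the partner genes Wdr48, G3bp1 and G3bp2 below were picked after their values were seen.

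Among 15 tested partners and activators of USPs, 4 were higher and 1 lower, against 16.1% and 13.5% of all genes tested (3 and 4 with the length trend removed, against 11.4% and 12.1%). Atxn7l3 and Atxn7, which hold Usp22 in the SAGA module, rose from 142 ± 5.39 to 192 ± 17.0 and from 84.3 ± 4.81 to 102 ± 1.58 CPM, and Eny2, a further subunit with a short transcript, fell from 34.0 ± 4.74 to 25.9 ± 3.08 CPM (SD, n = 3 per organ). With the length trend removed, Atxn7l3 kept its call (adjusted p = 0.00205) and Atxn7 and Eny2 did not (0.675 and 0.448, edgeR). Hgs, an endosomal sorting protein that works with the Usp8 partner STAM, was 1.305-fold higher. Wdr48, the activator of USP1, USP12 and USP46, was not called on counts (means of 73.6 and 64.4 CPM, adjusted p = 0.144), nor was G3bp1, a partner of USP10 (0.391), and both were called lower with the length trend removed (0.0463 and 0.0333, edgeR). G3bp2, the other partner, was at 275.6 CPM in both organs.

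Of 31 tested ubiquitin ligases that oppose USPs or act in T cells, 8 were higher and 0 lower by edgeR, against 16.1% and 13.5% of all genes tested. At an unadjusted p under 0.05 they were 12 and 1 (20.7% and 18.5% of all genes). At an adjusted p under 0.05 they were 5 and 2 with the length trend removed (11.4% and 12.1%). By limma on log2 TPM they were 12 and 0, also adjusted (22.1% and 3.08%). Huwe1, a very large ligase whose substrates include p53 and MYC, rose from 754 ± 40.0 to 1109 ± 50.3 CPM, Smurf2, which targets TGF-beta receptors, from 133 ± 4.73 to 197 ± 9.73 CPM, and Traf3, a negative regulator of non-canonical NF-kB, from 105 ± 9.42 to 154 ± 4.37 CPM (SD, n = 3 per organ). Taking out the length trend moved Huwe1 on the log2 scale from 0.56 to 0.26 and that of Traf3 from 0.55 to 0.30, and both were called (adjusted p = 6.41e-04 and 0.00761, edgeR).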

How the data were processed

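RNA was polyadenylated and the libraries directional, 3 from spleen and 3 from mLN. The submitters' processing notes name STAR, RSEM and the build mm10, with no roles, versions, annotation release or strand setting. The authors deposited expected counts (estimated, per gene, not normalized), TPM and isoform-weighted transcript lengths, per the file headers. Symbols were found for 55141 of 55487 identifiers, and coordinates, exon overlaps and GC content come from GENCODE vM21 (GRCm38).

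Expected counts were rounded, filtered by filterByExpr (12486 genes), scaled by TMM on the totals of the genes kept and tested with edgeR's two-sided quasi-likelihood test (robust; threshold 0.05 after Benjamini-Hochberg adjustment). A standard error is the absolute log2 fold change divided by the root of F. For the length fit, a loess trend (span 0.3) of each library's log2 CPM deviations on transcript length entered as an offset with a mean of 0. The deposited TPM values were tested with limma (trend, robust) as log2(TPM + 1), on which the changes of low genes are understated. The methods were tested on simulated data. Libraries of the same organ differed beyond sampling noise (chi-square per degree of freedom 5.60 to 12.1).

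The alternatives were other scaling factors (RLE, upper quartile), DESeq2, limma-voom, a pseudocount of 0.1, no filter or a stricter one, a GC trend, a block, a stricter threshold and leaving out libraries singly. Values for each library are given for members called with a change of at least 1.3-fold, the 3 of highest mean TPM and the genes of the pairs, and from the other lists up to 3 genes of smallest p; further genes were chosen after their values were seen. Some genes are not reported here, nor is a list that holds them. Members, roles and lists were themselves chosen with earlier results of these data known. R 4.3.3 ran edgeR 4.0.16, DESeq2 1.42.0 and limma 3.58.1. Python 3.11.15 with pandas 2.3.3 and numpy 2.4.6 made the annotation, and matplotlib 3.10.9 the figures.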

Additional observations from a re-analysis of the deposited data

How the results depend on the processing

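The number of Usp genes higher in mLN was between 9 and 16 in all alternatives other than centred log2 TPM, where it was 5. It was 16 with the trend on GC content removed, where 18.1% of all genes were higher, and 16 with the replicate block, where 20.6% were (16.1% without either); the block added Usp9x, Usp38, Usp45 and Usp35, and Usp28 among the lower. It ranged from 10 to 13 with single libraries left out, against 12.7 to 16.6% of all genes. On centred log2 TPM 6.39% of all genes were higher, and in all other alternatives between 9.86 and 22.1%. Usp7, Usp10, Usp25 and Usp36 were called higher in all 19 alternatives. The number lower, 1 by the edgeR test on counts, was 3 with upper-quartile factors, 2 with DESeq2, limma-voom, the stricter filter or the replicate block, 4 with the length trend removed, and 0 on log2 TPM with either pseudocount, on centred log2 TPM, without a filter, with the GC trend removed or at a threshold of 0.01, and between 0 and 2 with single libraries left out. At an unadjusted p under 0.05 the edgeR test gave 3 lower members without a filter and 1 with the GC trend removed. The members' median log2 fold change of 0.17 became 0.38 and 0.43 on log2 TPM with pseudocounts of 1 and 0.1, and -0.01 with the length trend removed. On log2 TPM the median of all tested genes was itself 0.21. The log2 fold change of Usp4 was -0.0062 with the length trend removed and -0.0037 on centred log2 TPM, against 0.05 on counts. The length and GC trends were each removed alone, not together. Few counts limit what can be said of Usp2, Usp27x, Usp35, Usp46 and Usp49. Deviations of libraries with the same replicate number had small correlations (0.0223, 0.0023 and 0.0652). Spleen replicates 1 and 3 correlated best with the mLN library of their own number, and spleen replicate 2 with mLN replicate 1 (0.0238). No pairing is stated in the labels, so the replicate block pairs numbers only.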
